A study of Mus musculus with 8 samples.

Results

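Monocyte progenitors of mouse bone marrow were chosen by their own counts, as the cells that held at least 1 UMI (unique molecular identifier, a tag that counts each captured RNA molecule once) of both F13a1 and Ly86 and no UMI of Siglech or Cebpe. Across 8 mice, 3882 cells met this rule among 46159 cells kept from 59465 deposited barcodes, where a kept cell had 1000 or more UMIs and under 10% of its UMIs in mitochondrial genes. The mice gave 494 (young male), 734 (young female), 252 (middle-aged male), 454 (middle-aged female), 506 (old male), 522 (old female), 371 (very old male) and 549 (very old female) of these cells. The rule reads the same counts that are described below, so the levels of F13a1, Ly86, Siglech and Cebpe in the members, and the contrast of members with other cells, are descriptions without a test. Age took no part in the rule, and the comparisons between ages are over mice.

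The study profiled bone marrow cells that lacked lineage markers and carried c-Kit, a fraction enriched for haematopoietic stem and progenitor cells, by droplet single-cell RNA sequencing with 1 library per mouse. All 8 mice were wild-type, and no treatment is named in the labels. A male and a female were taken at 14 weeks (young), at 50 weeks (middle-aged) and at 95 weeks (very old), while the old male was 78 weeks and the old female 79 weeks of age. Each age therefore had 2 mice that also differed in sex, and the labels of both very old libraries carry another library series than those of the other 6, so that very old age and library series cannot be told apart. The question for these cells was what changes in their share of the marrow fraction, their identity genes and their other transcripts from 14 to 95 weeks.

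Monocytes arise in bone marrow from progenitors that are shared with neutrophils and from progenitors that are shared with dendritic cells. The transcription factors PU.1 (gene Spi1), IRF8 and KLF4 drive the monocyte fate, whereas C/EBPε (gene Cebpe) and GFI1 drive the neutrophil fate, and the receptor for macrophage colony-stimulating factor (gene Csf1r) carries the survival signal of the lineage. F13a1 encodes the A subunit of coagulation factor XIII, which monocytes and macrophages also make, and Ly86 encodes MD-1, the secreted partner of the Toll-like receptor homologue Cd180.

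Library totals ran from 83062003 to 150135029 UMIs, and the members themselves held 8181120 (middle-aged male) to 17498925 (young female) UMIs per mouse. The median member had 28176 UMIs in the young male, 22710.5 in the young female, 32398.5 in the middle-aged male, 28625 in the middle-aged female, 22963 in the old male, 18819 in the old female, 26815 in the very old male and 18945 in the very old female. The old female and very old female were the shallowest and the middle-aged male the deepest, so that detection per cell was compared between ages after thinning every cell to 5000 UMIs. The authors' counts were summed over the members of each mouse, and a level in CPM is the number of UMIs of a gene for each 1000000 UMIs after the summed UMIs of each mouse were scaled by TMM, a correction for composition whose factors ran from 0.9497 to 1.048. Other sets of cells were scaled in the same way among their own 8 mice. Xist was at 813 to 1191 CPM in the members of the 4 females and at most 0.123 CPM in the 4 males, as labelled. Of 45888 distinct kept barcodes, 271 occurred in 2 or more libraries, with 3 to 14 shared by each of the 28 pairs of libraries.

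F13a1 (ENSMUSG00000039109) lies on chromosome 13 at 36867178 to 37050244 on the minus strand and Ly86 (ENSMUSG00000021423) at 37345208 to 37419036 on the plus strand (GRCm38), so that both genes of the rule are separated by 294963 bases. Their RefSeq promoter windows (250 bases before and 50 bases after the annotated start, in the direction of the gene) are shown because these genes define the population and because each window holds letters that factors of the monocyte lineage are known to read. The F13a1 window spans chr13:37050195-37050494 on the minus strand of GRCm38.p6, and the capitals mark GAGGAA, the core bound by PU.1, which occurs 66 bases before and 17 bases after the start. The Ly86 window spans chr13:37345095-37345394 on the plus strand, and the capitals mark GAAANNGAA, a pair of interferon regulatory factor half-sites, which begins at the start itself.
F13a1: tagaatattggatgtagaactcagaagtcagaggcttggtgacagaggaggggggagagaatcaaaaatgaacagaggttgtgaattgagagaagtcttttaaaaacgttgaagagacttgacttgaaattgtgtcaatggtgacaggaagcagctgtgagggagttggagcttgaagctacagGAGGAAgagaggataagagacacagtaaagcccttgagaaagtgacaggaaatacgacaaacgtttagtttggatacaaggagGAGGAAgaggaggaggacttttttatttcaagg
Ly86: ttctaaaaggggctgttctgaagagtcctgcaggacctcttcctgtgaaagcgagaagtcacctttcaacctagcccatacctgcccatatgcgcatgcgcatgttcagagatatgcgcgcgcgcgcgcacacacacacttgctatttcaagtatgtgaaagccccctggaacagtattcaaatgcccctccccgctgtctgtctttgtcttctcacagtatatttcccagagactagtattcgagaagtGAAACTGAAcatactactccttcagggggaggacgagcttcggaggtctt
GAGGAA was found on either strand in 28.3% of 32851 promoter windows of this length and GAAANNGAA in 8.56%. The matches are matches of letters and do not show binding.

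The members carried the markers that the label names, at levels well above those of the other kept cells. Csf1r had 45.0 ± 7.1 CPM (SD, n = 8 mice) in the members and 4.06 CPM in all other kept cells. Irf8 had 426 ± 64.7 CPM in the members and 53.1 CPM in the others. Ly6c2, the surface antigen of classical monocytes, had 550 ± 199 CPM in the members and 81.7 CPM in the others. Each was higher in the members in 8 of 8 mice. Among genes of at least 20 CPM, those with the largest ratio to the other cells after F13a1 (22.3-fold) and Ly86 (13.9-fold) were the interferon-inducible Ifi209 (11.97-fold), Csf1r (11.1-fold), the membrane proteins Ms4a4c (10.3-fold) and Ms4a6c (9.82-fold), Tifab (9.41-fold), Klrb1f (8.70-fold), Irf8 (8.03-fold) and the chemokine receptor Ccr2 (7.93-fold).

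Neighbouring sets of cells in the same mice show where the members stand within myeloid progenitors. Mpo progenitors (4417 cells with 10 or more Mpo UMIs and no UMI of F13a1, Siglech or Cebpe) are myeloid progenitors without F13a1 that also held basophil and mast cell transcripts (Cpa3 at 287 CPM against 7.002 CPM in the members), and Cebpe progenitors (5417 cells with a Cebpe UMI and no UMI of Fcnb, Siglech or F13a1) for cells with the neutrophil factor. Klf4 was higher in the members than in either set in 8 of 8 mice, at 15.7 CPM in the members, 0.753 CPM in Mpo progenitors and 0.754 CPM in Cebpe progenitors. The lysosomal protease Ctss had 51.1 CPM in the members, 11.3 CPM in Mpo progenitors and 3.29 CPM in Cebpe progenitors. The members also held the genes of primary granules that monocyte and neutrophil progenitors share. Elane, neutrophil elastase, had 2410 ± 812 CPM (SD, n = 8) in the members, above the 642 CPM of Mpo progenitors and below the 5131 CPM of Cebpe progenitors. Mpo had 3846 CPM in the members, 2183 CPM in Mpo progenitors and 4799 CPM in Cebpe progenitors. The neutrophil factor Gfi1 had 12.3 CPM in the members and 44.0 CPM in Cebpe progenitors. Elane, Mpo and Gfi1 were lower in the members than in Cebpe progenitors in 8 of 8 mice. Kit, the receptor by which the fraction was sorted, had 45.5 CPM in the members and 92.6 CPM in the other kept cells.

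**Figure D1:**
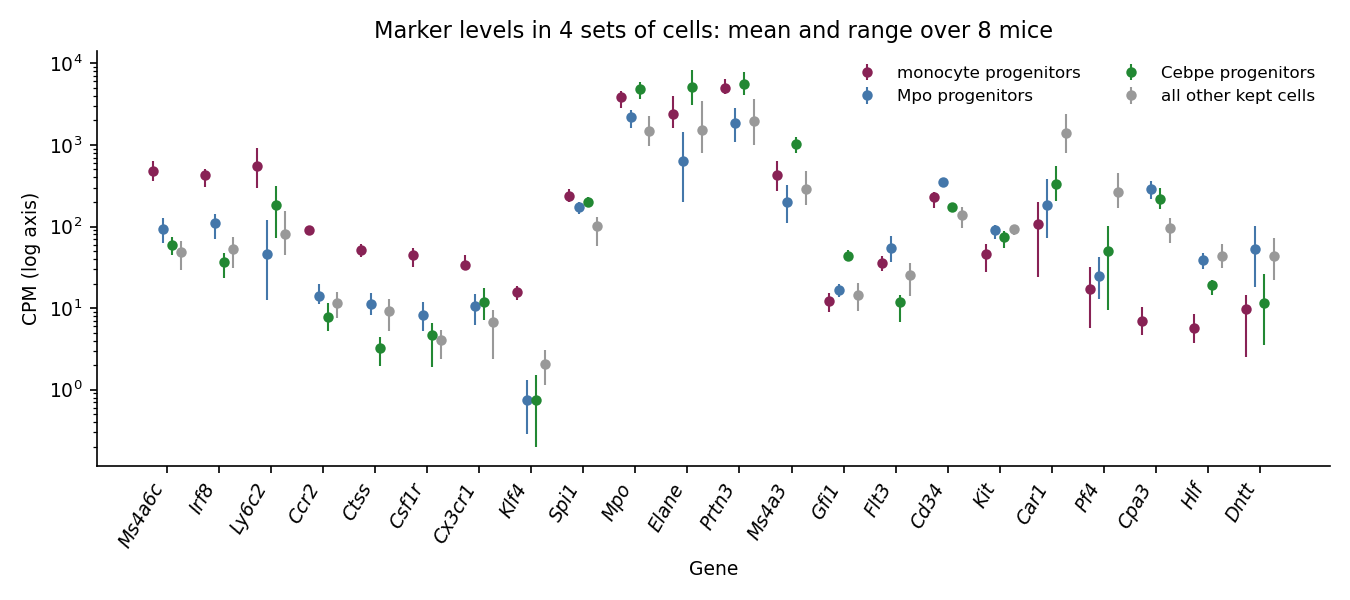
Levels of 22 lineage genes in CPM (log axis) in monocyte progenitors, Mpo progenitors, Cebpe progenitors and all other kept cells, with the point at the mean and the line from the lowest to the highest of 8 mice. Csf1r, Irf8, Klf4 and Ctss are highest in the monocyte progenitors, whereas Elane, Ms4a3 and Gfi1 are highest in the Cebpe progenitors.

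Membership at the edge of the rule went with weaker marker detection and lower depth. The 131 members with exactly 1 UMI of each gene had Csf1r in 30.5% of cells, Ly6c2 in 55.7% and Irf8 in 80.2%. The 3102 members with 2 or more UMIs of each gene had Csf1r in 66.7%, Ly6c2 in 91.8% and Irf8 in 99.4%, at median depths per mouse of 19199 to 32935 UMIs against 7289 to 21023 UMIs for the former. Just outside the rule, the 1574 cells with F13a1 but no Ly86 had Irf8 in 45.0%, the 1766 cells with Ly86 but no F13a1 had it in 72.8%, and the 1177 cells that failed only through a Cebpe UMI had it in 93.5%. The last of these had the granule gene Elane in 99.5% of cells and Csf1r in 44.8%, and their median depth per mouse was 18804 to 32177 UMIs. Only 4 cells failed through a Siglech UMI alone. In levels pooled over cells without TMM scaling, the cells with Ly86 but no F13a1 had Irf8 at 447 CPM and Klf4 at 21.8 CPM. Members with 2 or more UMIs of each gene had 451 and 17.5 CPM. Klf4 was at 9.70 CPM in the cells that failed only through Cebpe and 1.11 CPM in those with F13a1 but no Ly86. Irf8 and Klf4 levels thus did not set these members apart from cells with Ly86 but no F13a1. Csf1r (48.6 against 18.4 CPM) and Ly6c2 (588 against 71.0 CPM) were higher in these members. The cells that failed only through Cebpe had Csf1r at 26.3 CPM and Ly6c2 at 623 CPM. Ly6c2 levels thus did not set these members apart from those cells. As the background of the rule, erythroid cells with 5 or more UMIs of Klf1, which should lack both genes, held an F13a1 UMI in 1.42% to 9.46% of cells per mouse and met the whole rule in 0% to 2.08%, at median depths of 30719 to 44014 UMIs.

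Members of the population differed among themselves along Ly6c2, where levels in thinned cells are plain UMIs for each 1000000 without TMM scaling. After thinning, a Ly6c2 UMI was found in 70.9% of members of the young male, 73.1% of the young female, 62.2% of the middle-aged male, 61.9% of the middle-aged female, 79.5% of the old male, 70.1% of the old female, 76.3% of the very old male and 84.0% of the very old female. The middle-aged mice were the lowest and the very old female the highest. Flt3, a cytokine receptor of multipotent and dendritic progenitors, had 68.6 ± 18.9 CPM in members without Ly6c2 and 22.9 ± 7.85 CPM in members with it (SD, n = 8), and was lower with Ly6c2 in 8 of 8 mice. Cd34, a surface antigen of early progenitors, had 291 ± 29.8 CPM without and 215 ± 35.1 CPM with Ly6c2, and was also lower in 8 of 8 mice. Cd74, the MHC class II invariant chain, had 318 ± 286 CPM without and 19.2 ± 21.3 CPM with Ly6c2 and was lower with it in 7 of 8 mice. The proliferation genes Top2a (308 ± 70.5 and 238 ± 40.5 CPM) and Mki67 (176 ± 46.8 and 129 ± 20.4 CPM) were lower with Ly6c2 in 8 and 7 of 8 mice. Bst2, like Flt3 on the list of dendritic progenitor markers, had 189 CPM in both. Elane had 682 ± 139 CPM without and 3152 ± 765 CPM with Ly6c2. Ms4a3, a gene of granulocyte and monocyte progenitors, had 150 ± 58.9 and 546 ± 146 CPM, and Klf4 had 5.93 ± 4.23 and 19.9 ± 1.93 CPM. All 3 genes were higher with Ly6c2 in 8 of 8 mice. Irf8 (425 ± 75.0 and 448 ± 71.3 CPM) and Csf1r (41.7 ± 14.6 and 49.1 ± 6.58 CPM) were higher with Ly6c2 in 5 and 6 of 8 mice. Ctss (64.4 ± 16.6 and 52.0 ± 4.28 CPM) and the chemokine receptor Cx3cr1 (33.0 ± 10.9 and 30.7 ± 6.45 CPM) were lower with Ly6c2 in 6 and 5 of 8 mice. The split uses a measured gene of the same cells and is given without a test.

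**Figure D2:**
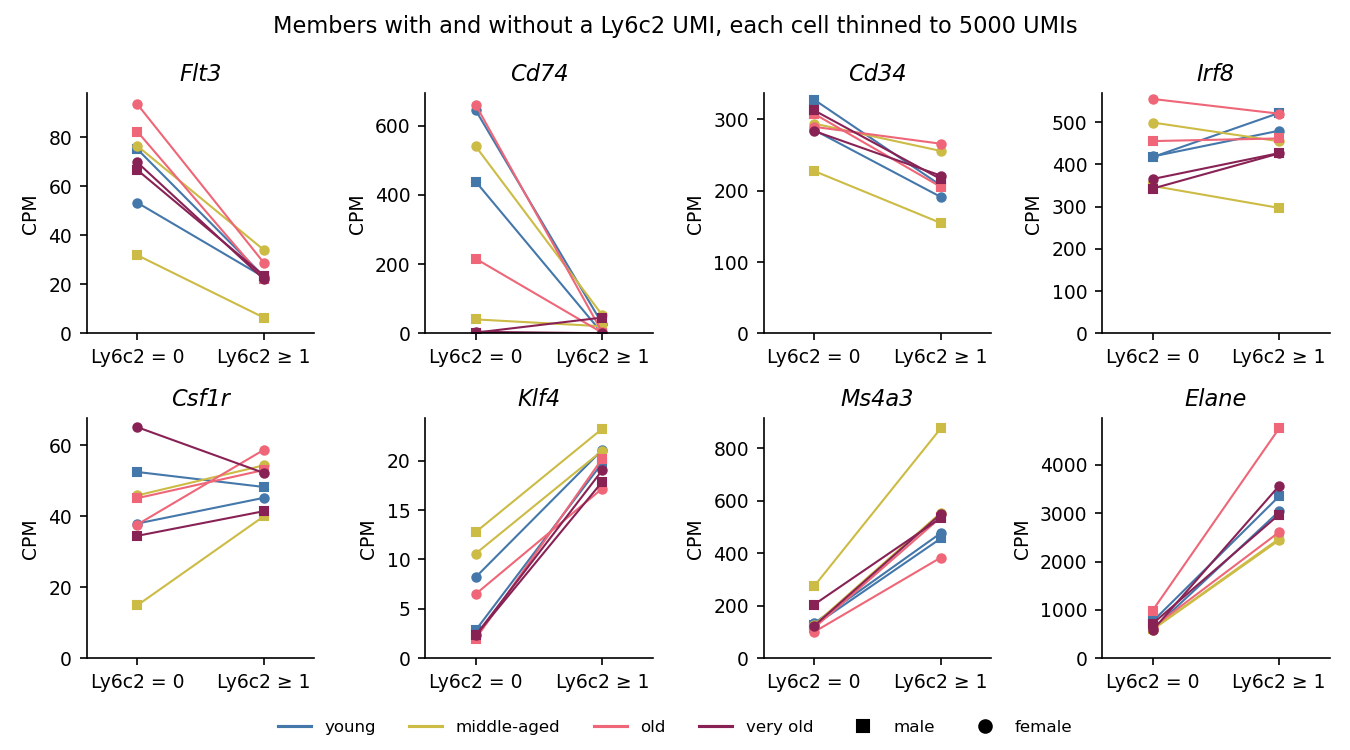
Levels in CPM of 8 genes in members without and with a Ly6c2 UMI after each cell was thinned to 5000 UMIs, with a line per mouse, colour for age and symbol for sex. Flt3 and Cd34 are lower and Klf4, Ms4a3 and Elane higher with Ly6c2 in 8 of 8 mice, whereas the lines of Irf8 and Csf1r run in both directions.

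Cd74 shows how unevenly some transcripts were held. Its level was 37.8 CPM in the young male, 74.8 in the young female, 27.2 in the middle-aged male, 90.3 in the middle-aged female, 22.1 in the old male, 106 in the old female, 24.0 in the very old male and 1.83 in the very old female. In the old female, 1068 of 1114 Cd74 UMIs were in 5 of 522 members, and in the very old male 229 of 249 were in 1 cell. No gene of the 10 on the MHC class II list passed the test in the 4 pairwise comparisons of ages, and Cd74 in the very old mice differed from that in the old mice by a log2 difference of -1.90 ± 0.77 (SE, edgeR quasi-likelihood test, adjusted p = 0.53). The dendritic progenitor list summed to 239 to 301 CPM per mouse, the lymphoid list to 2.50 to 20.3 CPM and the stem cell list to 6.20 to 14.4 CPM, with Siglech at 0 by the rule.

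The share of monocyte progenitors among kept cells was compared between ages by exact tests that could not reach 0.05 with these numbers of mice. It was 9.67% in the young male, 10.4% in the young female, 5.05% in the middle-aged male, 9.24% in the middle-aged female, 9.70% in the old male, 8.65% in the old female, 6.67% in the very old male and 7.56% in the very old female. The lowest share was that of the middle-aged male, and the old male lay between both young mice. Young mice averaged 10.0 ± 0.506% (SD, n = 2) and old and very old mice together 8.14 ± 1.31% (SD, n = 4), a difference of -1.88 percentage points with an exact two-sided permutation p of 0.267, where 2 against 4 mice cannot give less than 0.133. Middle-aged mice averaged 7.15 ± 2.96% (SD, n = 2), which was -2.88 points from young mice (exact permutation p = 0.333, the smallest that 2 against 2 allow). Without the middle-aged male the latter difference was -0.784 points, and without the middle-aged female it was -4.98 points. Over members, Mpo, Cebpe and Siglech cells alone, young mice averaged 31.2 ± 3.23% (SD, n = 2). Older mice averaged 28.0 ± 2.49% (SD, n = 4), a difference of -3.25 points (exact permutation p = 0.4). Older males were at 30.1%, older females at 26.6% and 25.2% and the young at 29.0% and 33.5%. Cells with 5 or more Klf1 UMIs numbered 476 and 438 in the old male and female. They were 1454 and 1407 in the very old and 737 and 1656 in the young. Their part in the share was not tested.

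Depth can enter the share in both directions. A deeper cell is more likely to hold a UMI of both genes, and also one of Cebpe or Siglech, which takes it out. With every kept cell thinned to 5000 UMIs young mice averaged 5.66 ± 0.387% (SD, n = 2) and older mice 5.05 ± 1.48% (SD, n = 4), a difference of -0.614 points on a lower level (exact permutation p = 0.667). Among cells of 3000 or more UMIs they averaged 10.5 ± 0.301% and 8.48 ± 1.47%, a difference of -1.99 points with both young mice above all 4 older mice (exact permutation p = 0.133, the smallest possible). Across the 8 mice the share against age in weeks had Pearson's r = -0.449 (permutation p = 0.257) and Spearman's rho = -0.570 (permutation p = 0.148). The 2 mice at the ages most distant from the median are both young mice. With them set aside r was 0.0804 (permutation p = 0.883), a value that holds no young mouse. Within the 6 mice of the same library series r was -0.245 (permutation p = 0.706). Without the middle-aged male r was -0.799 (permutation p = 0.0317). No relation with age was shown by the whole set of mice, and its size depended on that mouse.

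**Figure D3:**
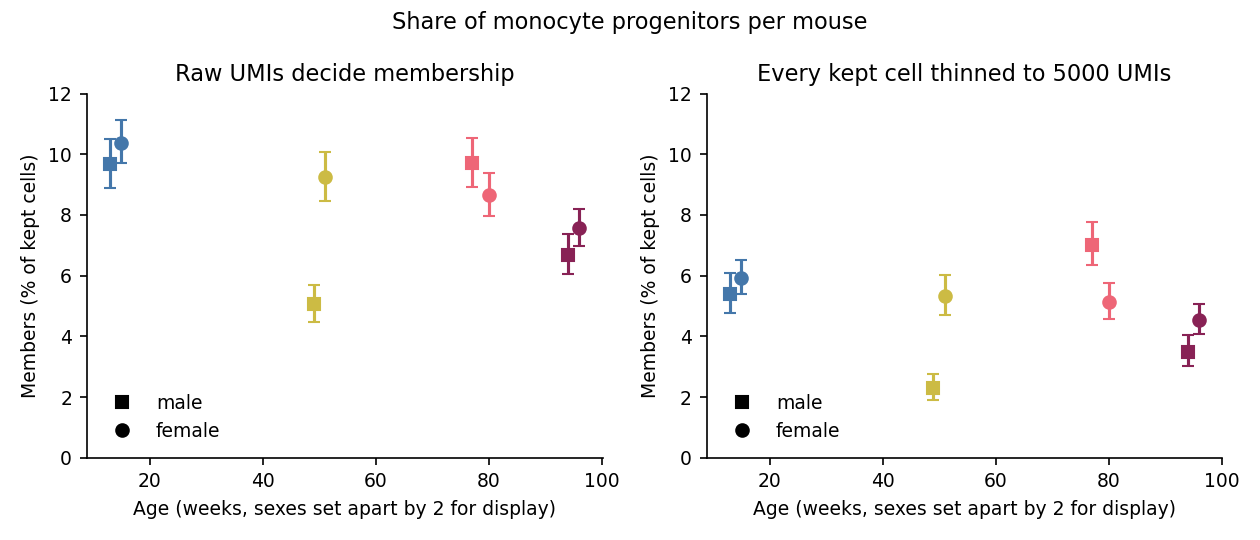
Monocyte progenitors as a percentage of kept cells against age in weeks, with each cell's own UMIs (left) and after thinning to 5000 UMIs (right), squares for males, circles for females and bars for the 95% Wilson interval, which covers counting error only. The middle-aged male is lowest in both plots, and the old male lies between both young mice on the left and above them on the right.

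Detection of 8 genes of identity, differentiation and cell cycle in thinned members was compared between young and older mice by an exact test that could not pass, since 2 against 4 mice give no p below 0.133. The largest difference was that of Ly6c2, found in 72.0 ± 1.56% of young (SD, n = 2) and 77.5 ± 5.85% of old and very old members (SD, n = 4), or 5.45 points higher (exact permutation p = 0.4). Csf1r differed by 1.58 points, Ms4a3 by 3.06 points, Mki67, a proliferation marker, by 1.73 points, and Irf8, Flt3, Mpo and Elane each by less than 0.7 points. All 8 had an adjusted p of 1 over the 8 genes.

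For the other transcripts, UMIs were summed per mouse and tested over 11443 genes with sex as a covariate (edgeR quasi-likelihood test, Benjamini-Hochberg adjusted p under 0.05), the 2 rule genes that passed the filter being left out of all counts. A test for any difference among the 4 ages called 337 genes (2.95%). The pairwise comparisons were unequal in the number of calls. Old and very old against young mice gave 5 (0.0437%), middle-aged against young 5 (0.0437%), old against middle-aged 419 (3.66%) and very old against old 11 (0.0961%). At an unadjusted edgeR p under 0.05 they were 804 (7.03%), 1797 (15.7%), 2543 (22.2%) and 975 (8.52%) in the same order, and 2402 (21.0%) for any difference. Of 30 gene lists, 21 had a called gene in at least 1 of these 4 comparisons, and 20 of them had it for old against middle-aged mice. The lists share genes, such as Ly6c2 and Mpo, which count on each of their lists. The 9 lists without a call in these 4 were MHC class I, MHC class II, the NADPH oxidase, S phase, pattern recognition, metal and oxidant response, and the markers of dendritic progenitors, lymphoid cells and stem cells. The test for any difference called B2m on the MHC class I list and Ung and Hells on the S phase list.

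None of the 3 markers outside the rule passed the test between young mice and old and very old mice. Csf1r was at 45.0, 44.0, 31.5, 44.8, 54.0, 47.9, 40.1 and 52.7 CPM in the mice in the order young, middle-aged, old and very old, male before female within each age. Irf8 was at 479, 444, 306, 405, 480, 501, 373 and 422 CPM in the same order. The middle-aged male had the lowest value of both genes. The log2 difference of older from young mice was 0.13 ± 0.13 (SE) for Csf1r, -0.07 ± 0.10 for Irf8 and 0.44 ± 0.16 for Ly6c2, with edgeR adjusted p-values of 0.89, 0.93 and 0.57. F13a1 (316, 300, 208, 354, 401, 311, 293 and 311 CPM) and Ly86 (180, 183, 153, 163, 214, 187, 221 and 227 CPM) are given as a description. Their young and older values overlapped for F13a1 and not for Ly86, and groups did not overlap in 13.4% of all tested genes.

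Between young mice and the 4 old and very old mice, 2 genes rose (0.0175%) and 3 fell (0.0262%), and the UMIs of those that fell were in a few cells. Tnfsf13os, an antisense transcript at the locus of the cytokine APRIL, was at 4.37 CPM in the young male, 10.3 in the young female, 12.1 and 18.9 in the middle-aged male and female, 21.6 and 19.3 in the old male and female and 17.1 and 21.8 in the very old male and female. Every old and very old mouse lay above both young mice, and the log2 difference was 1.46 ± 0.21 (SE, edgeR adjusted p = 0.036). Groups that do not overlap in this way are found for 13.4% of all tested genes in this comparison. The reads were counted per gene by the authors with Cell Ranger, and the strand setting is not given in the sources used here. Whether reads of the sense neighbour entered the count of Tnfsf13os was not tested. Mrgpra2b, a G protein-coupled receptor gene of a family with near-identical copies, was at 5.47 and 4.58 CPM in the young, 6.40 and 8.42 in the middle-aged, 10.8 and 8.27 in the old and 15.6 and 14.2 in the very old male and female. Its very old values were the highest of all, and the log2 difference from young was 1.25 ± 0.17 (SE, edgeR adjusted p = 0.025). The call of Mrgpra2b was lost without the very old mice and with old mice only. Library series and very old age cannot be told apart for this gene. Mrgpra2b was called in 14 of 21 alternatives and Tnfsf13os in 17 of 21. The call of Tnfsf13os was lost when members with 3 or more C1q or globin UMIs were left out. All 5 genes of this comparison, rises and falls, lost their call without the young male. Without the young male the comparison gave 1 call, without the young female 9, without either middle-aged mouse 12, without the old female 2, and without the very old male 44.

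The 3 genes that fell are on the list of macrophage markers, but none was particular to the members. Vcam1 averaged 0.834 CPM in the members and 10.6 CPM in Cebpe progenitors. C1qb averaged 1.83 CPM in the members and 3.10 CPM in all other kept cells, and C1qc 1.12 and 2.16 CPM. C1qb, a chain of the complement component C1q, was at 5.10 and 5.32 CPM in the young, 0.123 and 3.53 in the middle-aged, 0 and 0.190 in the old and 0.289 and 0.0963 in the very old male and female. The log2 difference of older from young mice was -5.23 ± 0.70 for C1qb, -4.83 ± 0.61 for C1qc and -2.65 ± 0.39 for the adhesion molecule Vcam1 (SE, edgeR adjusted p = 0.025, 0.025 and 0.036). C1qb was called in 12 of 19 alternatives, C1qc in 13 of 19 and Vcam1 in 7 of 16, and Vcam1 was lost without either young mouse, either old mouse or the very old female. These transcripts sat in a handful of members. In the young male, 121 of the 184 UMIs of C1qa, C1qb and C1qc were in 1 cell and 15 of 494 members held any. In the young female, 187 of 224 were in 5 cells, and the middle-aged female held 132 of 162 in 1 cell. The old and very old mice held 1 to 8 such UMIs each. Over the 5 macrophage markers, the summed level was 21.1 and 18.7 CPM in the young, 1.85 and 14.1 in the middle-aged and 3.80 to 4.34 in the old and very old mice. The part of these few cells in the 3 falls was not tested.

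**Figure D4:**
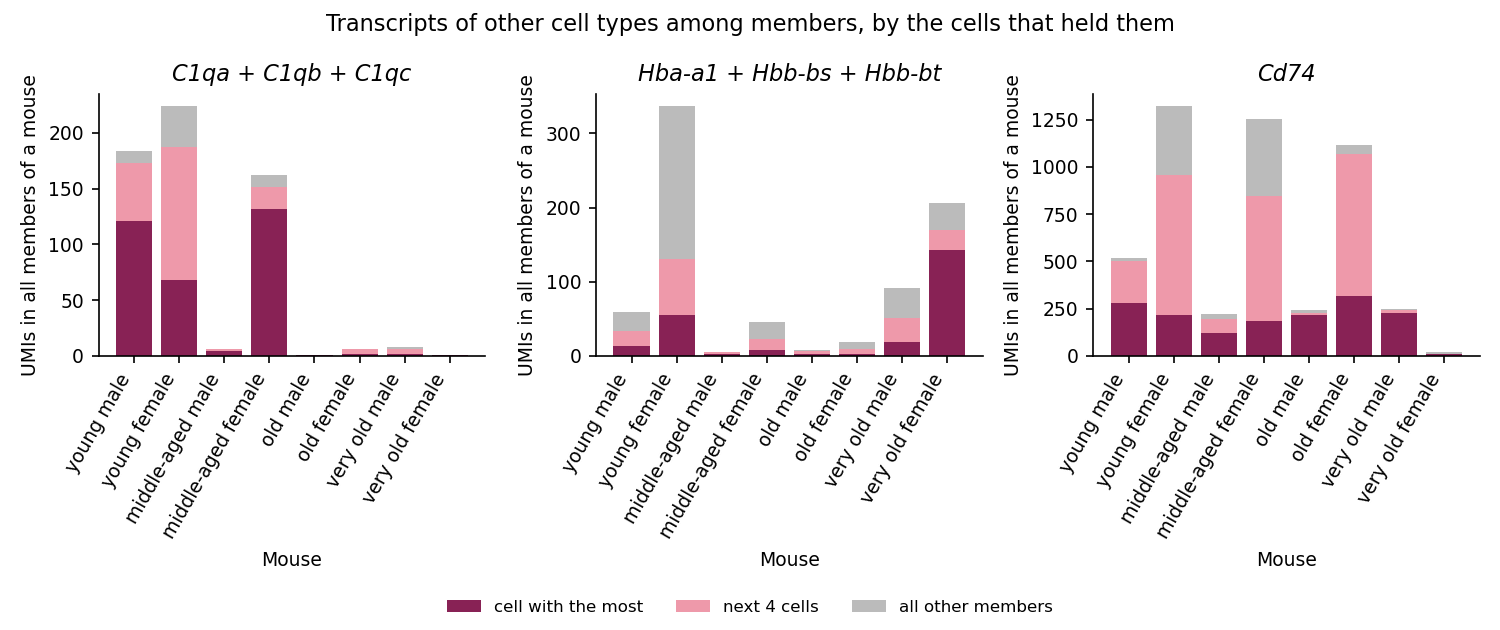
UMIs of the C1q genes, of 3 globin genes and of Cd74 in all members of each mouse, split into the cell with the most, the next 4 cells and all other members. The C1q UMIs are in few cells of both young mice and the middle-aged female, and most globin UMIs of the very old female are in 1 cell.

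Middle-aged mice stood apart from the others by Pim1, which encodes a serine/threonine kinase that is induced by cytokine signalling and promotes survival and growth. Pim1 (chromosome 17, 29490753 to 29496112, plus strand) was at 23.2 CPM in the young male, 28.1 in the young female, 101 in the middle-aged male, 84.4 in the middle-aged female, 29.7 in the old male, 41.1 in the old female, 23.4 in the very old male and 39.7 in the very old female. Both middle-aged mice lay above all 6 others. The log2 difference from young mice was 1.86 ± 0.18 (SE, edgeR adjusted p = 0.0019), and it passed the test in 19 of 19 alternatives. Middle-aged and young groups did not overlap in 42.7% of all genes tested, and the share with middle-aged mice beyond all 6 others was not counted. In Mpo progenitors of the same mice Pim1 was at 179 and 265 CPM in the middle-aged and at 71.6 to 127 CPM in the other mice, and in Cebpe progenitors at 115 and 139 against 31.1 to 60.7 CPM. In all 3 sets of cells the middle-aged mice were the highest. The other genes that rose from young to middle-aged mice were the protease inhibitor gene Serpina3g (log2 difference 1.37 ± 0.17), the kinetochore gene Cenpv (1.13 ± 0.17) and the chaperone Hsph1 (0.81 ± 0.11), which made 4 higher (0.035%), and the collagen receptor subunit Itga1 was the 1 that fell (0.00874%), by a log2 difference of -1.10 ± 0.15 (SE, edgeR adjusted p between 0.017 and 0.035 for these 4). Without the middle-aged male only Pim1 of the 5 was called, and without the middle-aged female 770 genes were. Leaving out the old male gave 32 calls, the very old male 62, the very old female 54, the young male 3 and the young female 8.

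Old against middle-aged mice gave the most calls, 143 higher (1.25%) and 276 lower (2.41%) in old mice, and the count hung on single mice. It was 0 without the middle-aged male (1222 genes at an unadjusted edgeR p under 0.05), 2 without the old male, 103 without the old female, 136 without the young male, 186 without the young female and 1302 without the middle-aged female. It was also 0 without the sex term (1988 at an unadjusted p under 0.05). DESeq2 called 437 genes, of which 98 were higher and 339 lower. The median mitochondrial share of members was 4.14% and 4.43% in the middle-aged male and female. In the other mice it was 4.86% to 5.23%. With only cells under 5%, 154 genes were called, and the part of this share was not tested. Of the 419 genes, 380 were also called without the middle-aged female, and 0 without the middle-aged male or without the old male, so that the number of calls rests on those males. For Hsph1 and Clec12a the differences themselves were less affected than the count, while those of Ly6c2 and Hspd1 kept their direction over wider ranges. Over 19 alternatives that of Hsph1 ran from -1.04 to -0.76, that of Clec12a from 0.51 to 0.70, that of Ly6c2 from 0.42 to 1.27 and that of Hspd1 from -0.99 to -0.47 (log2).

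Of 21 tested genes on the list of heat shock and unfolded protein genes 7 were lower and 0 higher in old than in middle-aged mice. The median log2 difference was -0.28 over the list against 0.01 over all genes, of which 2.41% were called lower and 1.25% higher. Hspd1, the mitochondrial chaperonin, was at 689 and 689 CPM in the young, 1267 and 828 in the middle-aged, 640 and 589 in the old and 564 and 509 in the very old male and female. Hsph1 (chromosome 5, 149614287 to 149636376, minus strand), a partner of HSP70, was at 43.6, 53.7, 86.0, 84.1, 43.1, 47.5, 26.2 and 33.4 CPM in the same order. For both genes the middle-aged mice were the highest, and the old mice did not overlap with them, as in 44.9% of all tested genes. The log2 difference of old from middle-aged mice was -0.75 ± 0.13 for Hspd1 and -0.91 ± 0.11 for Hsph1 (SE, edgeR adjusted p = 0.025 and 0.010). The other 5 were Hsp90aa1 (-0.71 ± 0.13) and Hspa8, cytosolic chaperones, Hspe1 (-0.53 ± 0.12), the partner of Hspd1, and Hspa5 and Creld2 (-0.97 ± 0.19) of the endoplasmic reticulum.

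The promoters of these genes are shown because 7 of them were called in the same direction. The heat shock element of 3 units (GAA, TTC and GAA with 2 free bases between them, on either strand) occurred in 0.603% of the 32851 windows. Of the 22 listed genes 18 had a window, and 3 of these, Hsph1, Hspd1 and Hspe1, held the element. Hspd1 and Hspe1 share their element, because they start close to each other and run in opposite directions. The capitals mark the element, which starts 36 bases after the annotated start in Hsph1 (chr5:149636287-149636586, minus strand) and is formed by 2 overlapping matches 89 and 84 bases before the start in Hspe1 (chr1:55087898-55088197, plus strand).
Hsph1: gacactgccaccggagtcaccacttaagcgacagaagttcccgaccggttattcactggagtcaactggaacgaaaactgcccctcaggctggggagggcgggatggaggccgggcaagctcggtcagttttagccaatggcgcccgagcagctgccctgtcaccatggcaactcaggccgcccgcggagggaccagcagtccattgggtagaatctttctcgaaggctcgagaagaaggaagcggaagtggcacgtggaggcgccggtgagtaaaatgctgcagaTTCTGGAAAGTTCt
Hspe1: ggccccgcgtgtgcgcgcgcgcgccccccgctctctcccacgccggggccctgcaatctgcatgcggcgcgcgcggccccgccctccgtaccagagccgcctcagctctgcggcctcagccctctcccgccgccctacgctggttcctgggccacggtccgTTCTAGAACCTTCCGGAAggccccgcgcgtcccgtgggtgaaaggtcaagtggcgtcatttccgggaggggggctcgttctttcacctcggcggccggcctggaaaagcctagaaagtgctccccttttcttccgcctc
The element is a description of these windows, and the other called chaperones are not shown by this search to lack one elsewhere.

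A list of 48 genes of ribosome biogenesis was put together after the values were seen, so that its count is a description of genes chosen for their direction, with 37 called lower and a median log2 difference of -0.54. Bop1, a factor of large subunit processing, was at 47.8 and 47.3 CPM in the young, 69.2 and 58.0 in the middle-aged, 38.7 and 41.7 in the old and 43.8 and 44.5 in the very old male and female, a log2 difference of -0.65 ± 0.11 from middle-aged to old (SE, edgeR adjusted p = 0.025). The growth genes Ncl, nucleolin, and Srm, spermidine synthase, which is not on that list, differed by -0.73 ± 0.15 and -0.73 ± 0.12 (adjusted p = 0.034 and 0.025). Myc itself was at 88.2 and 83.4 CPM in the young, 74.0 and 111 in the middle-aged, 51.1 and 79.6 in the old and 65.0 and 75.4 in the very old male and female, and its difference of -0.51 ± 0.15 did not pass (edgeR adjusted p = 0.086). In glycolysis 3 of 17 genes, Ldha, Pfkp and Pfkl, were lower and 1, Ldhb, was higher. Of all tested genes 2.41% were called lower and 1.25% higher from middle-aged to old mice.

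Of 27 tested genes of the monocyte program 5 were higher and 0 lower in old than in middle-aged mice. On this list 23 had a difference above 0, and the median was 0.41 against 0.01 over all genes. Of all tested genes 1.25% were called higher and 2.41% lower in this comparison, and the share above 0 was not counted. Ly6c2 was at 492 and 510 CPM in the young, 295 and 355 in the middle-aged, 708 and 476 in the old and 656 and 909 in the very old male and female. The middle-aged mice were the lowest of the 8. From middle-aged to old the log2 difference was 0.87 ± 0.19 for Ly6c2 (SE, edgeR adjusted p = 0.034). Fcer1g, an adaptor of activating receptors, was at 445, 420, 259, 329, 540, 425, 428 and 424 CPM from young male to very old female, with a difference of 0.71 ± 0.14 (adjusted p = 0.030). Tyrobp, another such adaptor, was at 659, 600, 366, 508, 762, 642, 660 and 675 CPM, with a difference of 0.68 ± 0.15 (adjusted p = 0.034). For both genes, as for Ly6c2, the middle-aged mice were the lowest of the 8. Old and middle-aged groups did not overlap in 44.9% of all tested genes, and the share beyond all other mice was not counted. The other members called were Clec12a, an inhibitory lectin receptor, at 187 and 182 CPM in the middle-aged and 291 and 268 CPM in the old male and female (0.60 ± 0.10, adjusted p = 0.025), and Pld4, a lysosomal exonuclease, at 17.0 and 30.1 against 44.7 and 37.1 CPM (0.79 ± 0.20, adjusted p = 0.050). The list of Fc receptors and adaptors had 4 of 17 genes higher, of which Fcer1g, Tyrobp and Clec12a are also on the monocyte program list. The other was Trem2, at 6.90 and 6.98 against 21.98 and 9.50 CPM (1.11 ± 0.25), highest in the old male. The lysosome list had 2 of 23 higher, Grn at 30.2 and 52.9 against 65.2 and 65.1 CPM (0.66 ± 0.16) and Npc2 at 281 and 321 against 502 and 410 CPM (0.60 ± 0.13).

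On the list of neutrophil granule genes 2 of 19 tested were called in this comparison, Mpo, myeloperoxidase (0.50 ± 0.11), and Mgst1 (1.01 ± 0.22). Both were higher, as were 1.25% of all tested genes. The granule genes Elane (0.80 ± 0.25) and Prtn3 (0.03 ± 0.17) did not pass (edgeR adjusted p = 0.089 and 0.94). Spi1 was at 284 and 226 CPM in the middle-aged and 271 and 232 CPM in the old male and female, a log2 difference of -0.02 ± 0.11 (SE, edgeR adjusted p = 0.94). Calls on other lists were the interleukin-6 receptor Il6ra (0.57 ± 0.11), the interferon-induced Ifi27l2a (1.45 ± 0.30), the actin-capping gene Capg (0.80 ± 0.15), the antiproliferative Btg2 (1.19 ± 0.21), the cell cycle inhibitor Cdkn1b (0.66 ± 0.15) and the mitotic gene Nusap1 (0.62 ± 0.12), which were higher, and Ccnd1, cyclin D1 (-0.76 ± 0.18), Id1 (-0.94 ± 0.21), Icam1 (-1.03 ± 0.23) and Bcl3 (-1.31 ± 0.30), which were lower. The list of cell cycle inhibitors and D cyclins thus had 1 higher (Cdkn1b) and 1 lower (Ccnd1) of 11, and the NF-kB list 1 higher, Tnfaip8l2 (0.65 ± 0.13), and 1 lower, Bcl3, of 19. The platelet gene Pf4, a marker of megakaryocytes, was higher (1.51 ± 0.31) and the mast cell gene Ms4a2 lower (-1.96 ± 0.42), at summed levels of 11.9 to 40.4 CPM for the megakaryocyte and 22.6 to 61.4 CPM for the basophil and mast cell markers, whose part in these results was not tested. Over 19 alternatives the difference of Ms4a2 ran from -2.72 to -0.19, and 10 of them called it. The largest differences were in genes of low level. Ly6k rose (2.66 ± 0.36), as did Arid3b, Ptpro and Cracr2b, and Bcat1 (-2.70 ± 0.46), Clnk and Xlr fell besides C1qc and Ms4a2. Slc15a2 had no UMI in the middle-aged members and 1.71 CPM over both old mice, at least 12.6-fold higher than the 0.136 CPM that 3 UMIs over both middle-aged mice allow. Ly6k and Bcat1 were each called in 15 of 19 alternatives, and Ptpro and Slc15a2 in 10 of 19. Xlr was called in 9 of 19, Cracr2b in 8 of 19, Clnk in 7 of 18, C1qc in 6 of 17 and Arid3b in 5 of 18.

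The same genes were set beside the neighbouring progenitors of the same mice. The test of whether the change from middle-aged to old mice differed between members and Mpo progenitors (added after the values were seen) called 0 of 12026 genes (0%), with 661 at an unadjusted edgeR p under 0.05 and 1 called by DESeq2. Against Cebpe progenitors it called 6 of 12054 (0.0498%). The change of Ly6c2 in members minus that in Mpo progenitors was -1.37 ± 0.31 (log2, SE) and minus that in Cebpe progenitors -0.53 ± 0.12, and neither passed (edgeR adjusted p = 0.30 for both). Fcer1g in Mpo progenitors was at 107 and 112 CPM in the middle-aged and 204 and 155 CPM in the old male and female. Its change in members minus that in Mpo progenitors was 0.03 ± 0.10 (SE, edgeR adjusted p = 0.98).

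Over the change from young to old and very old mice, members differed from Mpo progenitors in 2 of 12026 genes (0.0166%, with 615 or 5.11% at an unadjusted p under 0.05) and from Cebpe progenitors in 3 of 12054 (0.0249%, 2 higher or 0.0166% and 1 lower or 0.0083%, with 558 or 4.63% unadjusted, edgeR). S100a8, a subunit of the neutrophil protein calprotectin, was at 6.34, 5.09, 9.97, 1.73, 10.6, 3.04, 1.45 and 2.89 CPM in members from young male to very old female, and at 13.1, 9.09, 12.5, 3.06, 32.3, 7.87, 8.57 and 61.2 CPM in Mpo progenitors. The Mpo progenitors of the very old female were the highest. Mki67 was at 138, 162, 127, 153, 130, 169, 173 and 198 CPM in members and at 122, 146, 105, 131, 95.0, 119, 119 and 120 CPM in Cebpe progenitors. In the added tests, the unadjusted shares were 5.5% and 6.46% for middle-aged to old against Mpo and Cebpe progenitors, and 7.45% and 4.09% for old to very old.

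**Figure D5:**
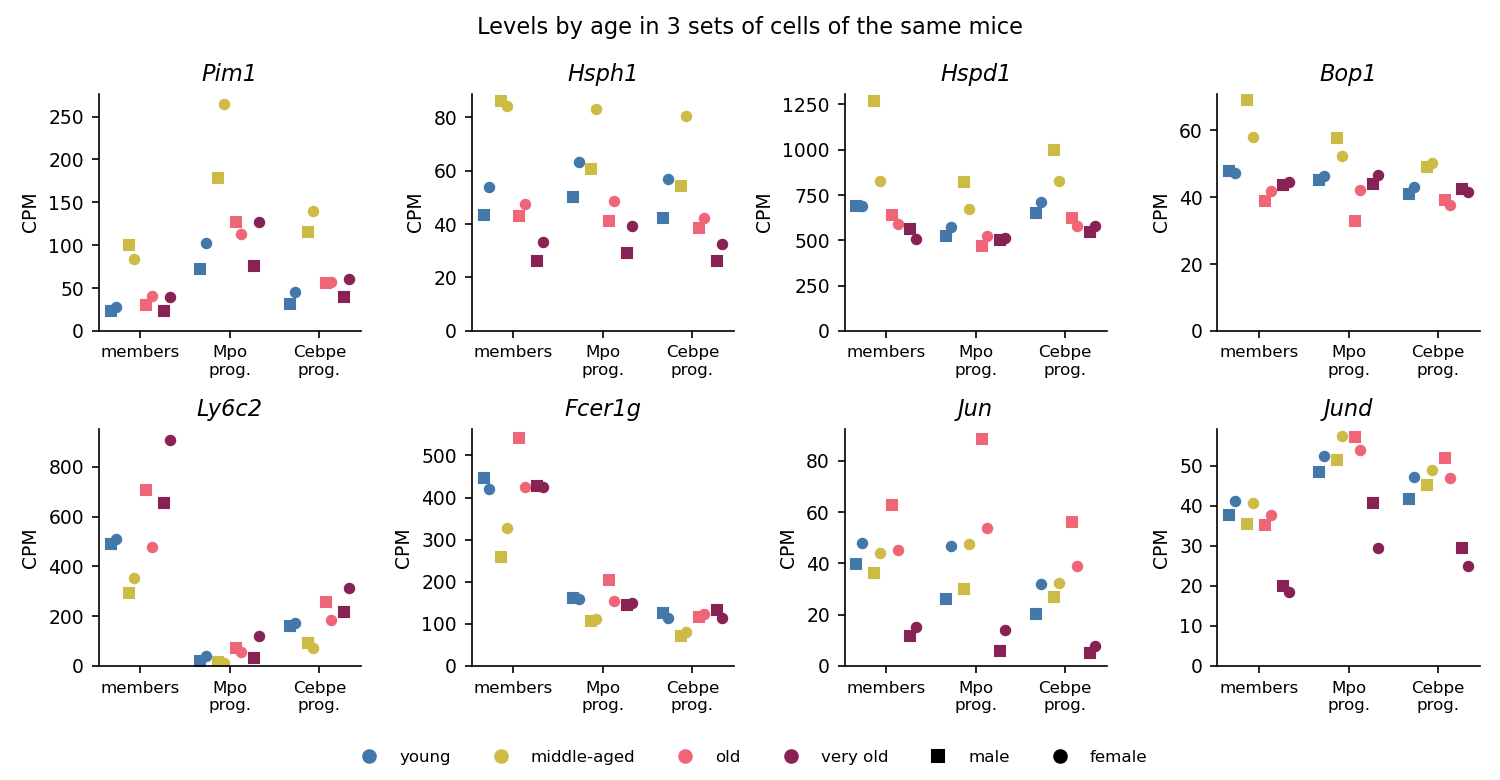
Levels in CPM of 8 genes in members, Mpo progenitors and Cebpe progenitors of each mouse, with colour for age and squares for males and circles for females. In all 3 sets of cells Pim1 is highest in the middle-aged mice and Jun lowest in the very old mice.

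Of 17 immediate early genes 3, Jun, Jund and Fosb, were lower in very old than in old mice, as were 0.035% of all tested genes. Jun (chromosome 4, 95049034 to 95052222, minus strand), a subunit of that immediate early transcription factor, was at 39.8 CPM in the young male, 47.9 in the young female, 36.5 in the middle-aged male, 44.2 in the middle-aged female, 62.7 in the old male, 45.4 in the old female, 11.6 in the very old male and 15.2 in the very old female. Both very old mice lay below all 6 others. The log2 difference from old mice was -2.02 ± 0.19 (SE, edgeR adjusted p = 0.0012), and it passed the test in 19 of 19 alternatives. Very old and old groups did not overlap in 36.3% of all tested genes, and the share with very old mice beyond all 6 others was not counted. Jund was at 37.6, 41.2, 35.6, 40.8, 35.2, 37.7, 19.9 and 18.6 CPM in the same order, a log2 difference of -0.92 ± 0.12 (SE, edgeR adjusted p = 0.0089). Fosb, at 2.90 and 2.28 CPM in the old and 0.0964 and 0.385 CPM in the very old male and female, was the third (-3.38 ± 0.55, adjusted p = 0.047), while 0 rose and the median of the list was -0.33. Jund was called in 15 of 19 alternatives and Fosb in 8 of 19, and Fosb was lost with any young, old or very old mouse left out. Fos (-0.97 ± 0.22, adjusted p = 0.15) and Junb (-0.29 ± 0.12, adjusted p = 0.56) did not pass the edgeR test of this comparison. The test for any difference among the 4 ages called 6 of the 17 listed genes, among them Junb and not Fos. Jun was also low in the very old Mpo progenitors (5.84 and 13.9 CPM against 26.2 to 88.4 CPM) and Cebpe progenitors (5.03 and 7.67 against 20.4 to 56.2 CPM). Library series and very old age cannot be told apart for these genes. The change of Jun in members minus that in Mpo progenitors was 0.79 ± 0.24 (SE, edgeR adjusted p = 0.59).

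Of 32 G2/M genes 1 was called higher in very old against old mice, as were 0.0612% of all tested genes. Ube2c, a ubiquitin-conjugating enzyme of mitotic exit, was at 88.0 and 104 CPM in the young, 87.3 and 100 in the middle-aged, 85.1 and 113 in the old and 162 and 176 in the very old male and female. Both very old mice were the highest, where very old and old groups did not overlap in 36.3% of all tested genes. The log2 difference of Ube2c from old mice was 0.78 ± 0.10 (SE, edgeR adjusted p = 0.0095). It was called in 14 of 19 alternatives and lost after thinning, without the sex term and without the old male, the old female or the very old male. On the G2/M list 31 had a difference above 0, with a median of 0.39 against 0.00 over all genes, and Cks2 (0.57 ± 0.10), Cdk1 (0.52 ± 0.10) and Top2a (0.33 ± 0.11) did not pass (edgeR adjusted p = 0.052, 0.073 and 0.43). The test for any difference among the 4 ages called 8 of the 32 G2/M genes, among them Cks2 and Cdk1, against 2.95% of all genes. Of 28 S phase genes 8 had a difference of very old from old mice above 0, with a median of -0.10. A UMI of Mki67 was found in 33.8% and 43.9% of thinned young members, 39.0% and 40.8% of middle-aged, 33.5% and 39.4% of old and 44.1% and 45.4% of very old members, male and female, and the very old values were close to that of the young female.

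Of the 11 calls 7 were higher (0.0612%) and 4 lower (0.035%). The other calls of this comparison were Rpgrip1, a gene of cilia, at 36.8, 31.0, 37.6, 31.8, 36.0, 33.1, 75.0 and 64.6 CPM in the mice from young male to very old female (1.01 ± 0.10, SE, edgeR adjusted p = 0.0013), the microRNA host gene Mir17hg (1.03 ± 0.16), the zinc transporter Slc39a1 and the globins Hba-a1 (4.70 ± 0.69), Hbb-bs (4.08 ± 0.65) and Hbb-bt (2.78 ± 0.37), which were higher, and the histone gene Hist1h2ac (-1.31 ± 0.15), which was lower. Rpgrip1 and Hist1h2ac were each called in 17 of 19 alternatives and Mir17hg in 10 of 19. Hba-a1 was called in 12 of 19, Hbb-bs in 11 of 19 and Hbb-bt in 11 of 19. All 3 globins were lost under 5% mitochondrial UMIs and with equal cells. Members held 8 and 18 globin UMIs in the old male and female and 91 and 206 in the very old male and female. A globin UMI was found in 7 of 506 and 14 of 522 members of the old and in 42 of 371 and 40 of 549 members of the very old male and female. The cell with the most held 19 of the 91 UMIs of the very old male and 143 of the 206 of the very old female. The 7 erythroid markers summed to 140 and 148 CPM in the old and to 263 and 186 CPM in the very old male and female, and to 486 CPM in the young female. Cells with 5 or more Klf1 UMIs were 476 of 5218 and 438 of 6036 kept cells in the old male and female. In the very old male and female they were 1454 of 5562 and 1407 of 7265. The part of these markers and cells in the globin result was not tested. Without the old male 4 genes were called and without the old female 5, and without the young male, the young female, the middle-aged male, the middle-aged female or the very old female 17, 19, 34, 33 and 17.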

How the data were processed

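Bone marrow cells without lineage markers and with c-Kit were measured in 8 mice with Chromium v.3 (10x Genomics). The authors aligned and counted reads with Cell Ranger (6.0.0 in the matrix headers) on mm10, and deposited UMI counts of each gene in each cell, without normalization or cell annotation. Of 32285 gene identifiers 32235 matched GENCODE vM21, which gave the coordinates, and 78 rows with repeated symbols were kept apart by identifier.

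Counts of members were summed per mouse and tested with edgeR 4.0.16 in R 4.3.3 (TMM, filterByExpr, quasi-likelihood test, age and sex, 8 mice, adjusted p under 0.05 over all genes). Standard errors are the log2 difference over the root of F. Difference in age change between cell sets used the mouse as a block. Shares were compared by exact two-sided permutation over mice (scipy 1.17.1). Nothing says which mice shared a preparation. No doublets were removed. Thinning drew 5000 UMIs per cell and left out shallower cells. Intervals are at 95% and cover counting error only.

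Members, 30 gene lists and tests were chosen with earlier results of these data known, and 1 list, for ribosome biogenesis, after the values here. Named genes were the 5 markers, up to 4 called genes per list with reference members, and the largest rises and falls called per comparison (10 for old and very old against young, otherwise 5), predicted genes skipped. The cell type markers and the 10 genes with the largest ratio to other cells were named as descriptions. Named outside these rules and chosen after their values were seen were Xist, Kit, Spi1, Cd34, Cd74, Fos, Junb, Myc, Hspa5, Hspa8, Hspe1, Cks2, Cdk1, Top2a, Slc39a1, B2m, Ung, Hells, Srm and, from the added list, Bop1 and Ncl. Alternatives were DESeq2 1.42.0, RLE scaling, no filter, no sex term, and thinned or stricter membership. Others were cells of 3000 or more UMIs, under 5% mitochondrial UMIs, cells above the 95th percentile of UMIs left out and 252 members drawn per mouse. Further ones were old mice only, no very old mice and each mouse left out. The share was also taken over members, Mpo, Cebpe and Siglech cells alone. Added later was leaving out members with 3 or more C1q or globin UMIs, so that members with fewer stayed in. The tests were checked on simulated counts. Promoters came from RefSeq (GRCm38.p6).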

Additional observations from a re-analysis of the deposited data

Results flagged for a closer look

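The following differences in age change between the members and other progenitors of the same mice passed the edgeR interaction test. From young to old and very old mice, S100a8, a calprotectin subunit of maturing neutrophils, changed by -1.81 ± 0.25 (log2, SE, edgeR adjusted p = 0.0066) relative to Mpo progenitors, with 6.34 and 5.09 CPM in young members and 61.2 CPM in the Mpo progenitors of the very old female, and it was lost without that mouse and with DESeq2. Bex4 changed by -1.46 ± 0.24 relative to Mpo progenitors (edgeR adjusted p = 0.034), and 4 of 11 alternatives called it. These are 2 of 12026 genes (0.0166%), and 0 were called without the very old female, 12 without the very old male, 1 without either middle-aged mouse, 6 without the young male and 8 without the young female.

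Relative to Cebpe progenitors, 3 of 12054 genes differed (0.0249%). Vcam1 changed by -3.18 ± 0.35 (edgeR adjusted p = 0.0004), in 11 of 11 alternatives, with 1.75 and 2.83 CPM in young members, 0.289 to 0.385 CPM in old and very old members and 5.08 to 17.9 CPM in Cebpe progenitors, and 16 of the 24 Vcam1 UMIs of young male members and 31 of the 50 of young female members were in 1 cell each. Cenpa, the centromeric histone, changed by 0.45 ± 0.07 and Mki67 by 0.40 ± 0.07 (edgeR adjusted p = 0.023 and 0.046), called in 5 and 4 of 11 alternatives. Without the young male, the old male or the very old female, 1 of the 3 was called in each case.

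In the tests added after the values were seen, the change from old to very old mice relative to Mpo progenitors differed for S100a8 (-2.44 ± 0.33) and S100a9 (-4.50 ± 0.62, edgeR adjusted p = 0.0028 for both), 2 of 12026 genes (0.0166%), with 1 call without the old male and 17 without the old female. Neither gene passed without the very old female. The change from middle-aged to old mice relative to Cebpe progenitors differed for Bcl2 (0.53 ± 0.09), Cst7 (-0.52 ± 0.07), Slpi (-0.77 ± 0.10), S100a4 (1.51 ± 0.25), Rgcc (-0.80 ± 0.11) and Prdx4 (0.92 ± 0.14, edgeR adjusted p = 0.0028 to 0.022). Without the middle-aged male 3 genes were called, 2 of them among these 6, without the middle-aged female 52, with all 6, without the old male 4, with 2 of the 6, and without the old female 1, which is among the 6. Relative to Cebpe progenitors from old to very old mice, edgeR called 0 genes (493 at an unadjusted p under 0.05, 0 by DESeq2), and 2 without the very old male.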

How the results depend on the processing

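The labels give no replicate numbers, and sex pairs the mice across ages. Sex was the block in the edgeR and DESeq2 tests between ages, whose counts without it are given below, and the exact tests of shares and detection did not use it. The differences in share kept their direction under every alternative run. With a mouse left out the difference of older from young ran from -2.40 to -1.39 points, that of middle-aged from young from -4.98 to -0.784 points and the correlation with age from -0.799 to -0.266. Calls with a mouse left out ran from 56 to 947 for any difference, 1 to 44 for older against young, 1 to 770 for middle-aged against young, 0 to 1302 for old against middle-aged, 4 to 34 for very old against old, 0 to 12 and 1 to 4 for the change relative to Mpo and Cebpe progenitors, and in the added tests 0 to 4, 1 to 52, 1 to 17 and 0 to 2.

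For any difference, calls were 133 under 5% mitochondrial UMIs, 219 with equal cells, 1704 without the filter and 5 without the sex term. For older against young they were 14 after thinning, 8 with 2 or more UMIs of each rule gene, 22 without the deepest cells and 162 without the filter. They were 0 without the sex term, 11 without the very old mice and 0 with old mice only. Leaving out members with 3 or more C1q or globin UMIs gave 1. For middle-aged against young they were 9, 50, 20, 54 and 15 (thinned, 2 or more UMIs, under 5% mitochondrial, without the deepest, equal cells). They were 99 with DESeq2, 656 without the filter, 1 without the sex term and 39 without members with 3 or more C1q or globin UMIs. For old against middle-aged they were 250 after thinning, 154 under 5% mitochondrial, 165 with equal cells, 1284 without the filter and 0 without the sex term. For very old against old they were 19 without the deepest cells, 21 with DESeq2, 179 without the filter and 1 without the sex term. The change relative to Mpo progenitors gave 0 with DESeq2 and 76 without the filter, and relative to Cebpe progenitors 1 and 40. Relative to Mpo progenitors the added tests gave 1 with DESeq2 and 2 with RLE scaling for middle-aged to old, and 1 with DESeq2 for old to very old. The cause was not tested in these cases.

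Without thinning, detection in older minus young members changed sign for Csf1r (-0.862 points), Irf8 (-1.01), Elane (-1.12), Ms4a3 (-0.306), Flt3 (-0.393) and Mki67 (-4.64), and depth per cell was lower in old and very old females. Pim1 and Jun passed in all 19 alternatives. The alternatives were not followed gene by gene for Hspe1, Hspa8, Hspa5, Slc39a1, Bop1, Ncl, Srm, B2m, Ung and Hells, and none of the other called genes that are named changed direction. Leaving out members by C1q or globin UMIs uses the transcripts that are tested, so that it says nothing on the C1q and globin calls. With 2 mice an age, the edgeR and DESeq2 p-values rest on a spread shared over the ages.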
